A study of Homo sapiens with 8 samples.

Results

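The genes described here are 9 genes of the NRF2 antioxidant response, chosen by name with earlier results of these data known: NFE2L2, KEAP1, SLC7A11, GCLC, GCLM, TXNRD1, SRXN1, NQO1 and HMOX1. All 9 were found among the 58735 genes of the deposited table, and all 9 were expressed well enough to be among the 13436 genes tested. The cells were PC3, an established human prostate cancer line grown in RPMI-1640 with fetal bovine serum. There were 4 libraries labelled siCtrl, with the genotype given as WT, and 4 labelled siPRMT7, with the genotype given as PRMT7 knockdown. Both groups received synthetic RNA with Lipofectamine 3000 and were cultured for 48 h afterwards. The titles use the prefix si and the library names the prefix sh. PRMT7 is a protein arginine methyltransferase, and the series asks what changes in these cells when it is targeted. Separate cultures are not named for the replicates, so p-values cover only the spread between these samples, which may be technical.

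NFE2L2 encodes NRF2, a transcription factor that is made continuously and held at a low level by KEAP1, an adaptor that delivers it to the CUL3 ubiquitin ligase. Oxidants and electrophiles modify cysteines of KEAP1, NRF2 then escapes degradation, enters the nucleus, pairs with small MAF proteins and binds antioxidant response elements. Its targets take up cystine (SLC7A11), make glutathione (GCLC and GCLM), reduce thioredoxin and peroxiredoxins (TXNRD1 and SRXN1), reduce quinones (NQO1) and break down heme (HMOX1). NRF2 activity is set largely at the protein level, which RNA libraries do not measure.

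Levels are in FPKM, fragments scaled to gene length and library size, so they can be compared between genes per length. Each library held 14526030 to 15724862 fragments. The library size behind the FPKM differed slightly from this total. It was 15884791 against 15654137 in siCtrl replicate 1, above the total, and 14507136 against 14526030 in siCtrl replicate 4, below it. The library siPRMT7 replicate 2 stood apart from the rest, at 28.4 on the first principal component against -11.9 to 7.36 for the other 7. Its FPKM values also had the largest sum, 278486 against 252493 to 266750 for the other 7. PRMT7 itself had 5.24, 4.86, 5.10 and 5.25 FPKM in siCtrl and 4.62, 4.31, 5.01 and 4.82 FPKM in the libraries labelled siPRMT7. The groups overlapped, the difference in mean was -8.29% and the two-sided exact permutation p was 0.0571, where the smallest possible is 0.0286. The transcript level therefore gives no separate check of the knockdown beyond this difference. Of 5 epithelial markers 4 were expressed (KRT8, KRT18, KRT19 and EPCAM, with CDH1 at up to 0.573 FPKM), while CD3E, KLK3 and KLK2 were at 0 fragments in every library. Summed markers of leukocytes reached at most 1.51 FPKM, of endothelium 4.32 FPKM and of fibroblasts 7.83 FPKM, the last almost all COL1A1, and all 3 sums overlapped between the groups. All 4 expressed epithelial markers were highest in siPRMT7 replicate 2.

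In these cells the 9 genes spanned 1.79 to 171 FPKM, and their order was the same in both groups. TXNRD1 was highest, with a mean of 171 FPKM over the 8 libraries, above 98.8% of the genes tested. NQO1 followed at 54.3 FPKM, then KEAP1 at 41.4 and HMOX1 at 37.0 FPKM, whose ranges over the 8 libraries overlapped. NFE2L2 lay at 16.6 FPKM. The ligase subunits GCLC (11.3 FPKM) and GCLM (10.8 FPKM) overlapped with each other. SLC7A11 had 7.22 FPKM, and SRXN1 was lowest at 1.79 FPKM, above 15.2% of the genes tested. That place is uncertain, since most of the exonic bases of SRXN1 also belong to another gene. Smaller shares did so for NFE2L2 (20.9%), NQO1 (17.7%), SLC7A11 (8.97%) and GCLC (6.20%). The ranges of all other neighbours in this order were separate.

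**Figure D1:**
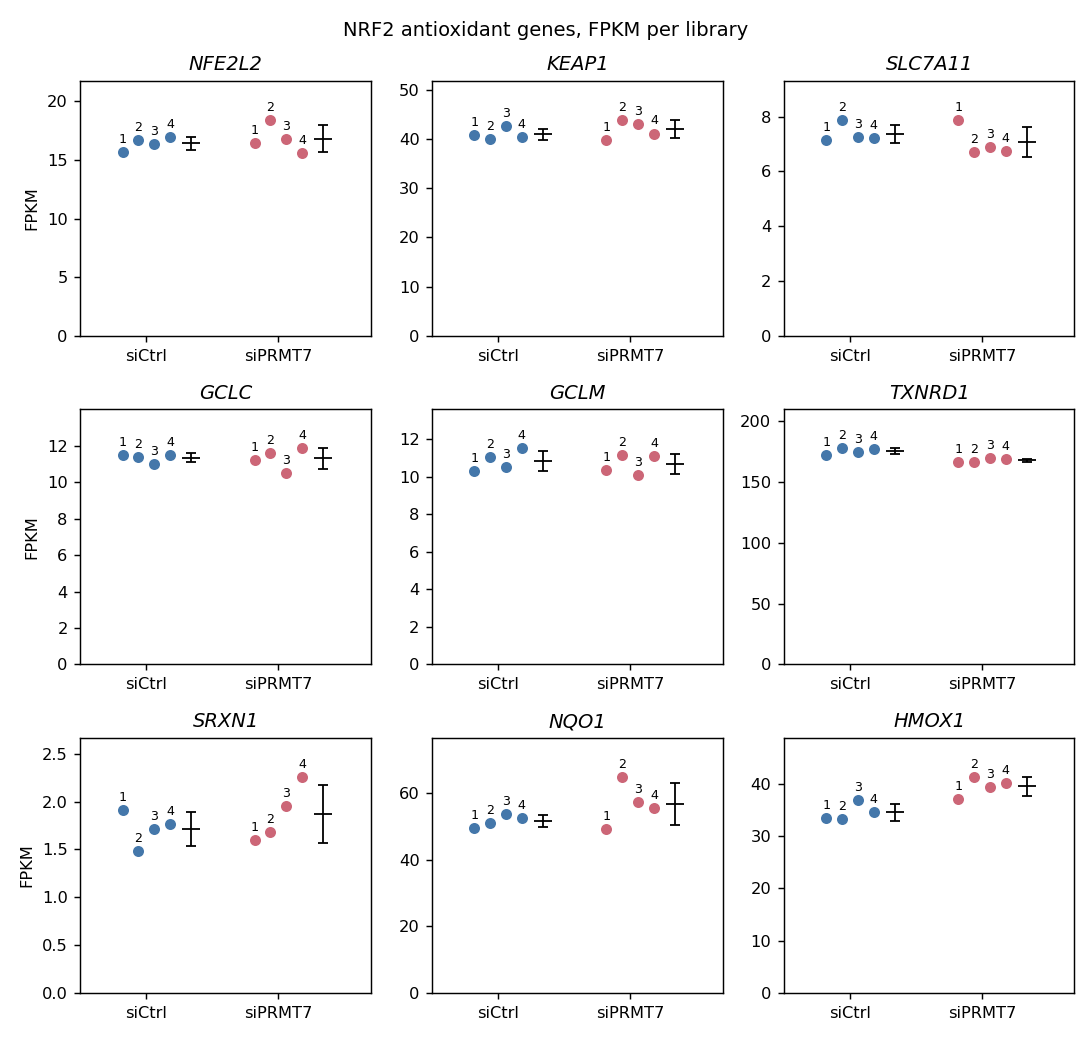
FPKM (vertical axis, from 0 and scaled per gene) of the 9 genes in the 4 siCtrl and 4 siPRMT7 libraries. Points are libraries, numbered by replicate, and the bar beside them is the mean with the SD. HMOX1 lies at 33.4 to 36.9 FPKM in siCtrl and 37.1 to 41.4 FPKM in siPRMT7 libraries, TXNRD1 at 172 to 177 and 166 to 169 FPKM, and the other 7 genes overlap between the groups.

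With limma and Benjamini-Hochberg adjustment over all 13436 genes, 0 of the 9 genes passed an adjusted p of 0.05, against 0.0149% of all genes tested. At an unadjusted p under 0.05 there was 1, HMOX1, which was higher, against 13.2% of all genes (7.67% higher and 5.49% lower). By limma's voom on rebuilt fragments 0 of the 9 passed as well, against 0.0893% of all genes. Of the 9, 5 had a higher mean and 4 a lower mean in siPRMT7 libraries, with a median log2 fold change of 0.03, and over all genes tested the median was -0.0015. On the TPM scale NFE2L2 and KEAP1 turned to the lower side, and KEAP1 did so with quantile normalization. The groups did not overlap for HMOX1, which was higher, nor for TXNRD1, which was lower. Over all genes tested the groups did not overlap in 8.57%, of which 4.14% were higher and 4.43% lower. All fold changes compare log2(FPKM + 1), and the added 1 makes those of weakly expressed genes too small.

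**Figure D2:**
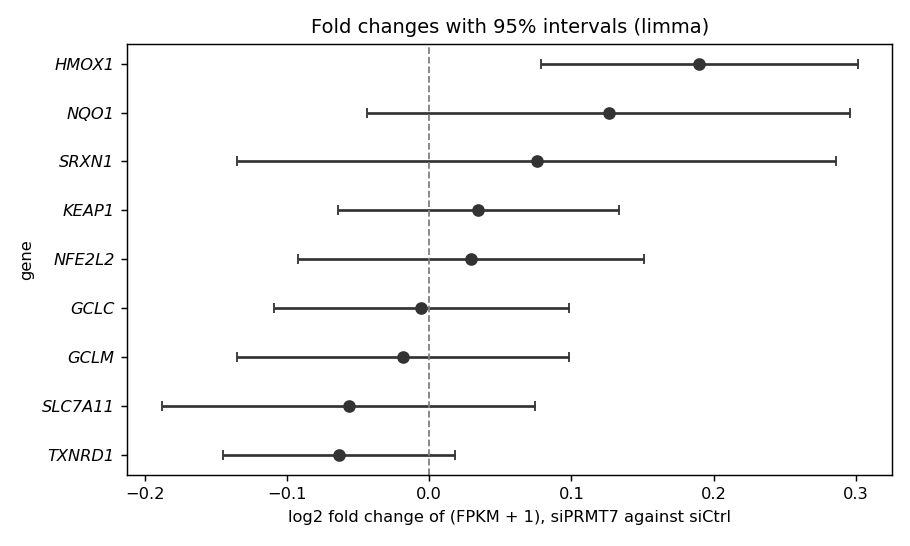
Log2 fold change of FPKM + 1 (horizontal axis) of the 9 genes (vertical axis), siPRMT7 against siCtrl, with 95% intervals from limma. The interval of HMOX1 runs from 0.08 to 0.30, and the intervals of the other 8 genes include 0.

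The sensor pair did not differ beyond its spread. NFE2L2 (ENSG00000116044, GRCh38 chromosome 2, 177227595 to 177392697, minus strand) had 15.7, 16.7, 16.4 and 17.0 FPKM in siCtrl and 16.5, 18.4, 16.8 and 15.6 FPKM in siPRMT7 libraries. The siPRMT7 libraries included both the highest (replicate 2) and the lowest (replicate 4) of the 8. Means were 16.4 ± 0.551 and 16.8 ± 1.17 FPKM (SD, n = 4 each), a log2 fold change of 0.03 (limma adjusted p = 0.819). The 95% interval allowed a change of -6.17% to 11.0% in FPKM + 1. Without siPRMT7 replicate 2 the log2 fold change was -0.01, so its direction rested on that library.

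KEAP1 (ENSG00000079999, chromosome 19, 10486120 to 10503741, minus strand) had 40.7, 40.0, 42.6 and 40.3 FPKM in siCtrl and 39.8, 43.8, 43.0 and 41.1 FPKM in siPRMT7 libraries. The groups overlapped, and the highest value was again siPRMT7 replicate 2. The log2 fold change was 0.03, with an interval of -4.36% to 9.66% and a limma adjusted p of 0.730. It was 0.01 without siPRMT7 replicate 2, 0.02 without siPRMT7 replicate 3, 0.06 without siPRMT7 replicate 1 and 0.05 without siCtrl replicate 3, and it turned to -0.0059 on the TPM scale and -0.0088 with quantile normalization. The ratio of NFE2L2 to KEAP1 in FPKM was 0.403 ± 0.0203 in siCtrl and 0.401 ± 0.0189 in siPRMT7 libraries, and it stayed between 0.381 and 0.422 in all 8. Per annotated exonic length NFE2L2 thus had fewer fragments than KEAP1 in every library, which need not hold for numbers of transcripts.

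The members were compared for the core of the antioxidant response element. These letters were not used to choose them, but they were chosen as NRF2 genes, so a share above that of all genes can come from that choice. A gene counted when any of its windows held a match, and bases farther from the start were not searched. RefSeq promoter windows (GRCh38.p14) were found for 7 of the 9: NFE2L2, KEAP1, GCLC, GCLM, TXNRD1, SRXN1 and NQO1. HMOX1 and SLC7A11 had no entry. In the 250 bases before each start, TGACNNNGC occurred on either strand in 3 of these 7 genes, GCLM, KEAP1 and TXNRD1. Over all 27305 genes with a window the share was 13.2%, and among the 56 other pathway genes with a window 14 held it (25.0%). The looser TGANNNNGC, which contains every match of the first, also occurred in NFE2L2 and NQO1, 5 of 7 genes against 40.3% of all genes and 31 of the 56 (55.4%). The 5 stricter matches are shown because they are the element the pathway is known for, on the strand of the gene with the matching bases in capitals:
GCLM, chr1:93909446-93909474, minus strand, 34 to 26 bases before the start: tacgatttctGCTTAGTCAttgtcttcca
KEAP1, chr19:10502784-10502812, minus strand, 31 to 23 bases before the start: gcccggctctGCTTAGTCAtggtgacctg
KEAP1, chr19:10502807-10502835, minus strand, 54 to 46 bases before the start: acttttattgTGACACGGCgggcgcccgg
TXNRD1, chr12:104215670-104215698, plus strand, 99 to 91 bases before the start: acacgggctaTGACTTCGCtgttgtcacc
TXNRD1, chr12:104286920-104286948, plus strand, 102 to 94 bases before the start: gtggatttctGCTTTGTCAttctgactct
The matches in GCLM and in the first KEAP1 line are the same 9 bases and read TGACTAAGC on the opposite strand. The TXNRD1 lines belong to separate starts of that gene, at 104215779 and 104287032. A match is a description of these letters and says nothing of binding. None of the 3 genes that share it passed: the log2 fold changes were -0.02 for GCLM, 0.03 for KEAP1, which turned lower on the TPM scale and with quantile normalization, and -0.06 for TXNRD1.

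Cystine uptake and glutathione synthesis showed no difference that passed. SLC7A11 (ENSG00000151012, chromosome 4, 138164097 to 138242349, minus strand), the transport subunit of the cystine and glutamate exchanger, had 7.16, 7.86, 7.25 and 7.23 FPKM in siCtrl. In siPRMT7 libraries it had 7.88, 6.72, 6.90 and 6.75 FPKM. In 3 of the 4 siPRMT7 libraries it lay below every siCtrl library, and replicate 1 lay above them all. The means were 7.37 ± 0.325 and 7.06 ± 0.550 FPKM (SD, n = 4 each), a log2 fold change of -0.06 (limma adjusted p = 0.668). It was -0.10 when siPRMT7 replicate 1 was left out (limma adjusted p = 0.270) and -0.04 when replicate 2 of that group was. Leaving out siCtrl replicate 2 gave -0.03, and the TPM scale gave -0.09.

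SLC3A2, the heavy chain that carries SLC7A11 to the membrane and also serves other amino acid transporters, had 179, 173, 180.3 and 166 FPKM in siCtrl. In siPRMT7 libraries it had 190.3, 232, 214 and 204 FPKM. All 4 siPRMT7 libraries were above all 4 siCtrl libraries, yet the gene did not pass over all genes (log2 fold change 0.26, limma adjusted p = 0.193). The ratio of SLC7A11 to SLC3A2 was 0.0399, 0.0454, 0.0402 and 0.0434 in siCtrl and 0.0414, 0.0289, 0.0323 and 0.0331 in siPRMT7 libraries. It was below every siCtrl value in 3 of the 4, and siPRMT7 replicate 1 lay among them.

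GCLC and GCLM encode the catalytic and the modifier subunit of glutamate-cysteine ligase, the rate-limiting enzyme of glutathione synthesis. GCLC (ENSG00000001084, chromosome 6, 53497341 to 53616970, minus strand) had 11.5, 11.4, 11.0 and 11.5 FPKM in siCtrl and 11.2, 11.6, 10.5 and 11.9 FPKM in siPRMT7 libraries. The values interleaved, with a log2 fold change of -0.01 and an interval of -7.29% to 7.03% (limma adjusted p = 0.965). GCLM (ENSG00000023909, chromosome 1, 93885205 to 93909456, minus strand) had 10.3, 11.0, 10.5 and 11.5 FPKM in siCtrl. In siPRMT7 libraries it had 10.3, 11.2, 10.1 and 11.1 FPKM. They interleaved too, with a log2 fold change of -0.02 and an interval of -8.95% to 7.05% (limma adjusted p = 0.888). Both subunits were lowest of all 8 libraries in siPRMT7 replicate 3. Without that library the log2 fold change turned to 0.03 for GCLC and 0.0053 for GCLM, and without siCtrl replicate 4 to 0.00082 and 0.0087. The ratio of GCLC to GCLM was 1.05 ± 0.0487 in siCtrl and 1.06 ± 0.0232 in siPRMT7 libraries. The subunits thus had about the same level per annotated exonic length throughout.

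TXNRD1 was slightly lower in every siPRMT7 library. TXNRD1 (ENSG00000198431, chromosome 12, 104215779 to 104350305, plus strand), the cytosolic selenoprotein that reduces thioredoxin with NADPH, had 172, 177, 175 and 177 FPKM in siCtrl and 167, 166, 169 and 168 FPKM in siPRMT7 libraries. The groups did not overlap, and the difference in mean was -4.34%, from 175 ± 2.63 to 168 ± 1.54 FPKM (SD, n = 4 each). Its replicates were the tightest of the 9 genes, with a coefficient of variation of 0.917% in siPRMT7, and 16506 to 19032 fragments per library gave a counting error of 0.756%. The limma log2 fold change was -0.06 (SE 0.0361), which did not pass (unadjusted p = 0.112, adjusted p = 0.465). The interval was -9.57% to 1.25%. limma draws the variance of each gene towards a trend over all genes tested. This SE, p and interval therefore do not measure the spread of the TXNRD1 replicates alone, which was tighter. The log2 fold change was -0.10 on the TPM scale (limma unadjusted p = 0.0306, adjusted p = 0.328) and -0.16 with quantile normalization (limma unadjusted p = 0.0126, adjusted p = 0.248). Its substrate TXN had 113 ± 4.26 and 120.4 ± 13.9 FPKM, and the mitochondrial reductase TXNRD2 had 3.91 ± 0.280 and 4.24 ± 0.429 FPKM, both overlapping between groups.

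SRXN1 (ENSG00000271303, chromosome 20, 646615 to 653370, minus strand), which restores overoxidised peroxiredoxins, had 1.91, 1.48, 1.71 and 1.76 FPKM in siCtrl and 1.597, 1.68, 1.95 and 2.26 FPKM in siPRMT7 libraries. The values overlapped widely. Only 64 to 89 fragments per library lay behind them, a counting error of 11.7% against a coefficient of variation of 10.4% in siCtrl and 16.0% in siPRMT7. The log2 fold change was 0.08 with an interval of -8.94% to 21.9% (limma adjusted p = 0.723). It was 0.01 when siPRMT7 replicate 4 was left out and 0.12 when replicate 1 of that group was. Leaving out siCtrl replicate 2 gave 0.03, and library weights gave 0.13. The level is uncertain, because 2292 of its 2698 exonic bases also belong to AL121758.1 on the same strand. AL121758.1 had at most 0.0464 FPKM in any library. The assignment of fragments in shared bases was not given in the sources used here.

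NQO1 had a higher mean in siPRMT7 libraries with a wide spread. NQO1 (ENSG00000181019, chromosome 16, 69706996 to 69726951, minus strand), which reduces quinones by 2 electrons, had 49.7, 51.0, 53.8 and 52.5 FPKM in siCtrl and 49.4, 65.0, 57.3 and 55.5 FPKM in siPRMT7 libraries. In 3 of the 4 siPRMT7 libraries it was above every siCtrl library, and replicate 1 was below them all. The means were 51.7 ± 1.78 and 56.8 ± 6.40 FPKM (SD, n = 4 each), a log2 fold change of 0.13 (limma adjusted p = 0.480). Without siPRMT7 replicate 2 the siPRMT7 mean was 54.1 FPKM and the log2 fold change 0.06. Without siPRMT7 replicate 1 the log2 fold change was 0.19 and the limma adjusted p 0.157. With quantile normalization it was 0.08. The related reductase NQO2 had 2.03 ± 0.274 and 2.09 ± 0.168 FPKM.

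HMOX1 was the member with the smallest p. HMOX1 (ENSG00000100292, chromosome 22, 35380361 to 35394214, plus strand), the inducible enzyme that opens heme to biliverdin, carbon monoxide and iron, had 33.4, 33.4, 36.9 and 34.5 FPKM in siCtrl. In siPRMT7 libraries it had 37.1, 41.4, 39.4 and 40.3 FPKM. The groups did not overlap, with siPRMT7 on the higher side, although siPRMT7 replicate 1 exceeded siCtrl replicate 3 only narrowly. The mean was 14.5% higher, at 34.5 ± 1.65 against 39.5 ± 1.79 FPKM (SD, n = 4 each). The log2 fold change was 0.19 (SE 0.0492, limma unadjusted p = 0.00383), and it did not pass over all genes (adjusted p = 0.208). Over the 19 alternatives the adjusted p ran from 0.0935 to 0.441 and the log2 fold change from 0.15 to 0.22, and without siPRMT7 replicate 2 it was 0.17. The constitutive isozyme HMOX2 had 7.57 ± 0.309 and 7.86 ± 0.706 FPKM, which overlapped.

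**Figure D3:**
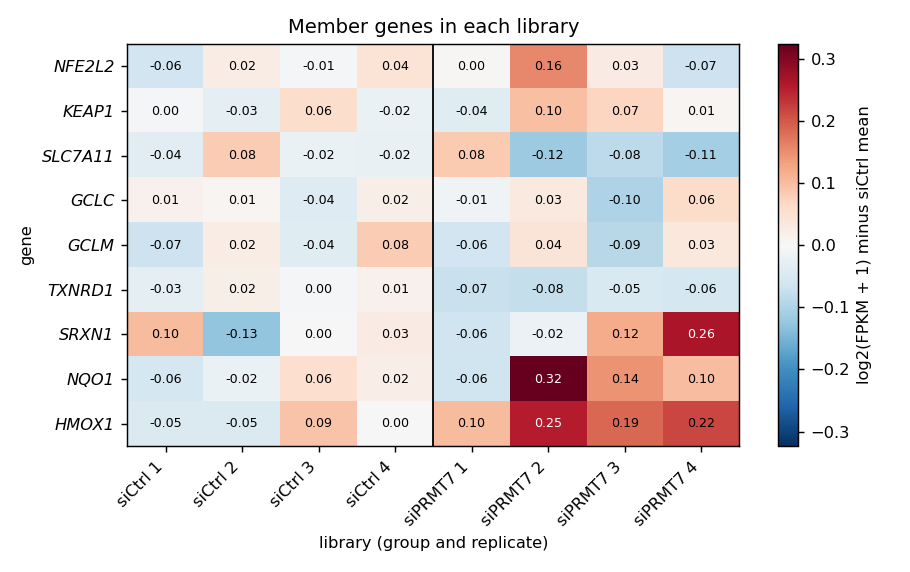
Log2(FPKM + 1) minus the siCtrl mean of the same gene (colour and printed value), with genes as rows and the 8 libraries as columns. NQO1 and HMOX1 are highest in siPRMT7 replicate 2 (0.32 and 0.25), TXNRD1 is below 0 in all 4 siPRMT7 libraries, and SLC7A11 has the opposite sign in siPRMT7 replicate 1 (0.08) and replicate 2 (-0.12).

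As a set the 9 members did not share a single pattern across libraries, although some pairs lay near each other. The library siPRMT7 replicate 2 was the highest of the 8 for 4 of them (NFE2L2, KEAP1, NQO1 and HMOX1) and the lowest for SLC7A11 and TXNRD1. Of all genes tested, 29.6% were highest in that library. Averaged over the 9 genes, the level relative to siCtrl was -0.01, 0.08, 0.03 and 0.05 on the log2 scale in siPRMT7 replicates 1 to 4, and -0.02 to 0.02 in siCtrl libraries. Profiles were compared as the root mean square distance between log2(FPKM + 1) values over the 8 libraries, each gene centred and divided by its SD, among 7385 genes with a mean of at least 5 FPKM. The pair of members nearest to each other was KEAP1 and NQO1 (0.478), and the farthest was TXNRD1 and HMOX1 (1.76). GCLC and GCLM were each other's nearest member (0.718). Among all genes compared GCLM ranked 28 in nearness to GCLC, and GCLC ranked 68 in nearness to GCLM. The median distances to all genes were 1.35 for GCLC and 1.32 for GCLM. All 9 members had nearer neighbours outside the list, which so many candidates make likely. For NQO1 these were ARPC4 (0.112) and CIAO2A (0.132), and for TXNRD1 ARHGAP11A (0.205) and IPO8 (0.253). For NFE2L2 they were NDUFC2 (0.252) and EIF5 (0.263). Over so few libraries near profiles arise in many genes, and these distances are a description.

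Beyond the 9 members, 73 other genes of the pathway were looked up by role, of which 66 were tested and 0 passed over all genes in limma, against 0.0149% of all genes tested. At an unadjusted p under 0.05 there were 13 higher and 2 lower, 22.7% of the 66 against 13.2% of all genes tested. The list was chosen with earlier results of these data known, so its shares beside those of all genes are a description only. By voom 0 of the 66 passed, and with library weights 1 did, TXNIP, where 0.432% of all genes passed. Higher means were found in 48 of 66, against 49.5% of all genes, and the median log2 fold change was 0.08. The groups did not overlap for 7 higher and 1 lower, 12.1% of the 66 against 8.57% of all genes tested. Of the 66, 38 were highest in siPRMT7 replicate 2, against 29.6% of all genes tested. Without that library 45 of 66 were higher (49.7% of all genes), the median was 0.03, and 10 higher and 1 lower had an unadjusted p under 0.05, against 13.0% of all genes tested. Any further part of that library in the counts was not tested.

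Among 12 regulators of NRF2, 6 had a higher and 6 a lower mean. Unadjusted limma p-values under 0.05 were found for 4 higher and 2 lower (50.0%), against 13.2% of all genes tested. The groups did not overlap for 3 higher and 1 lower of the 12 (33.3%), against 8.57% of all genes tested. The small MAF genes, whose products pair with NRF2 or with its competitor BACH1 on DNA, had higher means, and the groups overlapped for 1 of the 3. MAFG had 19.6, 19.6, 18.7 and 18.7 FPKM in siCtrl and 21.0, 21.8, 21.5 and 22.5 FPKM in siPRMT7 libraries, without overlap (log2 fold change 0.17, limma adjusted p = 0.189). MAFF, with the smallest p of this role, had 19.3 ± 0.592 and 22.7 ± 1.39 FPKM, also without overlap (0.22, limma adjusted p = 0.189). MAFK, named after its values were seen, had 15.6 ± 1.17 and 17.2 ± 1.07 FPKM, which overlapped (0.13, limma adjusted p = 0.409). SQSTM1, the autophagy receptor p62 that binds KEAP1, had 165, 163, 169 and 170.1 FPKM in siCtrl and 176, 196, 189.9 and 186 FPKM in siPRMT7 libraries, without overlap (0.16, limma adjusted p = 0.222). BACH1, the repressor that occupies the same elements, HMOX1 among them, had 10.3 ± 0.166 and 9.91 ± 0.451 FPKM, which overlapped.

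On the degradation side, CUL3, the scaffold of the ligase that KEAP1 serves, had 7.14 ± 0.407 and 6.44 ± 0.422 FPKM (log2 fold change -0.13, limma adjusted p = 0.379). Its RING partner RBX1 had 15.9 ± 0.789 and 18.9 ± 2.94 FPKM (0.23, limma adjusted p = 0.364). The kinase GSK3B, which marks NRF2 for a KEAP1-independent ligase, had 15.6 ± 0.481 and 13.8 ± 0.780 FPKM without overlap (-0.16, limma adjusted p = 0.240). RBX1 and GSK3B were singled out after their values were seen. NFE2L1, a relative of NRF2, had 94.5 ± 3.16 and 88.7 ± 12.1 FPKM, with 70.6 FPKM in siPRMT7 replicate 2 and at least 90.3 FPKM in the other 7 libraries.

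**Figure D4:**
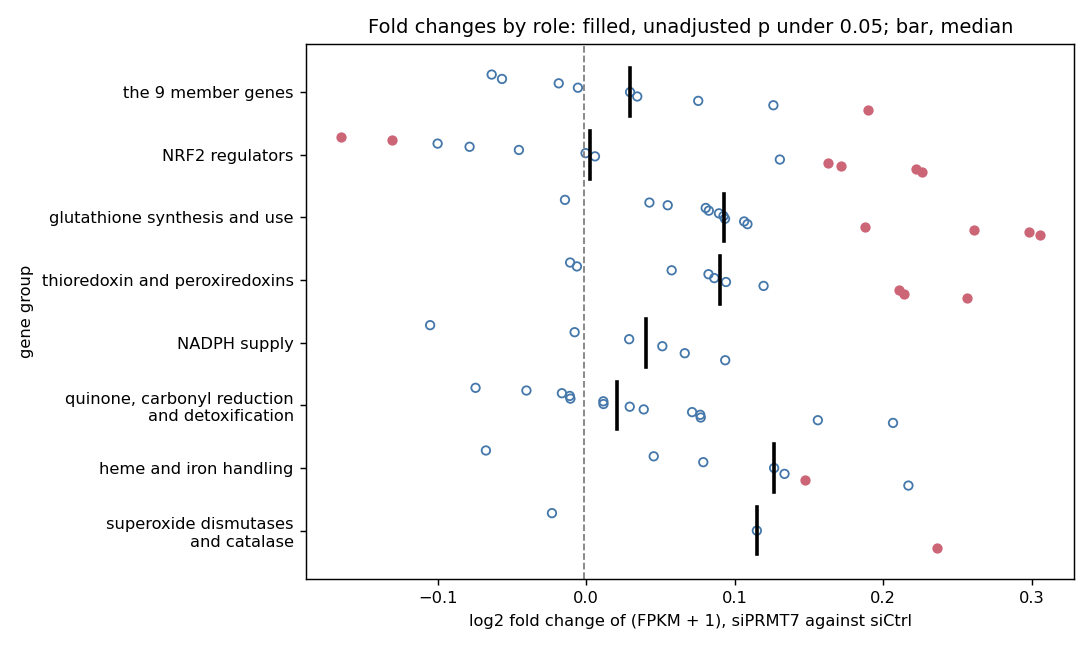
Log2 fold change of FPKM + 1 (horizontal axis), siPRMT7 against siCtrl, for the 9 members and the 66 other pathway genes tested, grouped by role (vertical axis). Filled points have an unadjusted limma p under 0.05, black bars are group medians and the dashed line is the median of all genes tested; medians lie between 0.00 for regulators and 0.13 for heme and iron genes.

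Of 14 genes of glutathione synthesis and use, 13 had a higher mean (median log2 fold change 0.09). In siPRMT7 replicate 2, 11 of the 14 were highest, against 29.6% of all genes tested. An unadjusted limma p under 0.05 was found for 4 of the 14 (28.6%), against 13.2% of all genes, and for 3 without that library (13.0% of all genes). SLC3A2, above, had the smallest p. GSS, which completes glutathione, had 11.7 ± 0.251 and 12.7 ± 0.803 FPKM, and GSR, which reduces its oxidised form, had 17.8 ± 1.01 and 18.4 ± 1.40 FPKM. Without siPRMT7 replicate 2, 11 of the 14 were higher (median 0.07). Of 10 thioredoxin and peroxiredoxin genes, 8 were higher (median 0.09, and 0.04 without siPRMT7 replicate 2), and 9 were highest in that library. Of these 10, 3 had an unadjusted limma p under 0.05 (30.0%), and 1 without that library. TXNIP, which binds and inhibits thioredoxin, had 62.4, 61.2, 64.1 and 61.1 FPKM in siCtrl and 68.0, 74.4, 74.6 and 71.9 FPKM in siPRMT7 libraries. It did not overlap between groups (log2 fold change 0.21, limma adjusted p = 0.155), and its adjusted p was 0.0444 with library weights. PRDX1, a major NRF2 target among the peroxiredoxins, had 214 ± 4.28 and 213 ± 22.3 FPKM. Its log2 fold change was -0.0062, and -0.12 with quantile normalization.

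Genes that supply NADPH had 0 of 6 with an unadjusted p under 0.05, against 13.2% of all genes, and 4 of the 6 were higher, against 49.5%. ME1, malic enzyme, had 17.7 ± 0.504 and 18.4 ± 1.29 FPKM. PGD, with the smallest p of this role, had 41.7 ± 2.36 and 38.7 ± 1.87 FPKM (limma adjusted p = 0.424). For the 14 detoxification genes tested, 0 had an unadjusted p under 0.05 and 9 were higher (median 0.02), against the same 13.2% and 49.5%. The smallest p there belonged to CBR1, a carbonyl reductase, with 15.8 ± 1.01 and 17.8 ± 1.92 FPKM (limma adjusted p = 0.415).

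Heme and iron genes lie next to HMOX1 in function. Of 7 tested, 6 were higher (median 0.13), and 4 of 7 without siPRMT7 replicate 2 (median 0.07). An unadjusted limma p under 0.05 was found for 1 of the 7 (14.3%), against 13.2% of all genes tested. The ferritin chains that store the iron released from heme were abundant, FTH1 with 4592 ± 145 and 5024 ± 413 FPKM and FTL with 1088 ± 39.4 and 1198 ± 116 FPKM. Both overlapped between the groups (limma adjusted p = 0.507 and 0.467). FECH, ferrochelatase, which inserts iron into heme, had the smallest p, at 5.43 ± 0.191 and 6.12 ± 0.350 FPKM without overlap (log2 fold change 0.15, limma adjusted p = 0.291). Of the 2 superoxide dismutases and catalase, 2 of 3 genes were higher, and 1 of 3 had an unadjusted limma p under 0.05. SOD2, the mitochondrial superoxide dismutase and also a target of NF-kB, had 5.47 ± 0.304 and 6.62 ± 0.557 FPKM without overlap (0.24, limma adjusted p = 0.215).

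SLC7A11 is also a target of ATF4, the transcription factor of amino acid and translation stress, so 8 genes of that branch were set beside it. Of the 6 tested 0 passed over all genes, 2 had an unadjusted p under 0.05 against 13.2% of all genes (ATF4 and, named after its value was seen, DDIT3, both higher), and the median log2 fold change was 0.03. ATF4 had 129 ± 3.91 and 145 ± 10.9 FPKM without overlap (0.16, limma adjusted p = 0.310). It was the only 1 of the 6 without overlap, 16.7% against 8.57% of all genes tested. Its target CHAC1, which degrades glutathione, had 23.8 ± 0.852 and 23.9 ± 1.80 FPKM, and ASNS, asparagine synthetase, was below the filter at 0.757 ± 0.127 and 0.809 ± 0.0733 FPKM.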

How the data were processed

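Poly(A)-selected RNA of PC3 cells was sequenced in 4 siCtrl and 4 siPRMT7 libraries. The authors deposited FPKM values for 58735 genes. Trimming with cutadapt 2.5, alignment with HISAT2 2.1.0 and counting with featureCounts 1.6.3 are the tools listed in the submitters' processing notes. These notes also list a mouse build, but start, end and strand of all 58735 genes match GENCODE release 29 (human, GRCh38). FPKM times gene length gave whole multiples of a step per library for 100% of values above 0 (tolerance 0.01 fragments), from which fragment counts were rebuilt. Counting errors cover counting only. Whether counting used strand was not given in the sources used here. Exonic bases shared with other genes were 1250 of 5979 for NFE2L2, 865 of 9645 for SLC7A11, 536 of 8646 for GCLC, 575 of 3254 for NQO1, 2292 of 2698 for SRXN1 and 0 for KEAP1, GCLM, TXNRD1 and HMOX1.

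The filter kept genes reaching FPKM 1 in 4 or more libraries. Values were tested as log2(FPKM + 1) by limma (3.58.1, run in R 4.3.3; variance trend, two-sided, Benjamini-Hochberg, threshold 0.05). The SOD2 symbol has 2 entries, and the higher was used. Members and lists were chosen with earlier results of these data known. Named genes were all members, PRMT7, partners and paralogs picked for their role, and the gene with the smallest p in each role. Some genes under this rule are not reported here. Alternatives were other pseudocounts, filters, scalings, variance models, library weights, voom, a replicate block and leaving out each library, with the genes tested kept as for all 8. Apart from voom on the rebuilt fragments, count models (planned in case raw counts were deposited) were left out, since the values are FPKM. On simulated libraries with 13463 genes tested, the test recovered 10.4% of 1.2-fold, 88.1% of 1.5-fold and 95.5% of 2-fold changes. It made 136 calls there, of which 7 were false. The simulation gave all genes the same dispersion (0.00518) and held no library standing apart like siPRMT7 replicate 2. Recovery in the real libraries may therefore be lower.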

Additional observations from a re-analysis of the deposited data

Results flagged for a closer look

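SLC7A11 stood out within both groups. In siCtrl, replicate 2 lay at 7.86 FPKM, away from the other 3 libraries by 0.871 of the range of the group. In siPRMT7, replicate 1 lay at 7.88 FPKM, away from the others by 0.845 of the range. Both are above Dixon's 95% critical value for groups of 4. These were the 2 such values among 20 groups examined, the 9 members and PRMT7 in each group, and chance gives about 1 in 20.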

How the results depend on the processing

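The number of members called was 0 under all 19 alternatives. For HMOX1, TXNRD1, NQO1, SRXN1 and SLC7A11 the direction held under each alternative that gave a value, and SRXN1, TXNRD2 and NQO2 gave none with the filter of FPKM at least 5. On the TPM scale, where the median of all genes tested was -0.04, the log2 fold change turned to -0.0094 for NFE2L2, -0.0059 for KEAP1 and -0.0363 for CHAC1. With quantile normalization it turned to -0.0088 for KEAP1, -0.0011 for TXN and -0.0212 for CHAC1. The same setting lowered it to 0.05 for ATF4, 0.07 for SQSTM1 and 0.16 for SLC3A2, and raised it to 0.22 for FTL. For PRDX1 it gave -0.12 (limma unadjusted p = 0.00638, adjusted p = 0.207). With each library left out in turn it ran from -0.0124 to 0.0619 for NFE2L2, from -0.0271 to 0.0257 for GCLC and from -0.0411 to 0.0087 for GCLM. The same ranges were -0.14 to 0.0045 for NFE2L1, -0.0064 to 0.0687 for GSR and -0.067 to 0.042 for PRDX1. They were -0.0125 to 0.0761 for NQO2, -0.0071 to 0.0813 for HMOX2 and -0.0285 to 0.0544 for CHAC1. The count of all genes called was 2, against 1 with a pseudocount of 0.1, with FPKM at least 5 or with quantile normalization, 5 with no filter, 12 with voom and 58 with library weights. It was 0 to 4 with 1 library left out, 0 without any single siCtrl library or siPRMT7 replicate 3 and 4 without siPRMT7 replicate 1. Of the other pathway genes 1 was called with library weights, and 43 to 52 had a higher mean over the alternatives. PRMT7 had a log2 fold change of -0.14 on the TPM scale (exact permutation p = 0.0286). The causes were not tested. With a replicate block 0 genes were called, and the adjusted p of HMOX1 was 0.347. Libraries with the same number did not deviate together (correlations -0.03, -0.01, 0.05 and 0.06), and unlike numbers gave -0.12 to 0.13. With so few libraries this cannot show whether those with the same number were handled together, which the labels do not give. SRXN1 had the fewest fragments of the members, 64 to 89. AL121758.1, to which 2292 of the 2698 exonic bases of SRXN1 also belong, had at most 0.0464 FPKM in any library. The parts of depth and of the shared bases in the SRXN1 count were not tested.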
